A study of Mus musculus with 12 samples.

Results

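The genes described here encode 40 factors of ribosome biogenesis and the nucleolus, chosen by name, and 39 of them had a probe set with 1 gene symbol, out of 19938 genes that did. Noc2l, a nucleolar factor of the large subunit, had none and is not analysed. The 39 genes were read from 42 probe sets, and for the 3 genes with 2 probe sets the one with the higher mean stands for the gene. The mRNA of EL-4, a T lymphoma line of the mouse, was measured with Affymetrix arrays (Mouse Gene 1.0ST) in 4 groups with 3 biological replicates each (12 arrays). All cells were first kept for 30 min with cycloheximide (CHX), a blocker of protein synthesis, at 10 μg/ml in its solvent dimethyl sulphoxide (DMSO), or with DMSO alone. After CHX, cells of the group CHX + P/I then received the phorbol ester PMA (10 ng/ml) with ionomycin (1 μM) for 4 h. PMA with ionomycin acts in place of antigen on T cells. Cells of the group P/I received the same PMA with ionomycin after DMSO. CHX cells and DMSO cells were not stimulated (0 h). The sources used here do not name an unstimulated group kept for the same 4 h, so P/I and time in culture cannot be told apart. EL-4 is a single transformed line, so the values say nothing of primary T cells. Values are log2 robust multichip averages (RMA) of quantile-normalized arrays, in which each value is relative to the other mRNAs on the array. A gene was called where the adjusted p was under 0.1 by limma, fitted to all arrays and adjusted by the Benjamini-Hochberg method over the 23410 probe sets that carry a symbol, and a difference is that of 2 group means on the log2 scale.

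Ribosomes are built in the nucleolus, where RNA polymerase I transcribes a precursor of the ribosomal RNAs. Small nucleolar ribonucleoproteins (snoRNPs) guide the chemical modification and early cleavage of this precursor, and a long series of assembly factors then folds it, trims it and joins it to ribosomal proteins to give the small and the large ribosomal subunit. Growth signals raise ribosome synthesis, and in T cells activation by antigen is followed by growth and division, with enlargement of the nucleolus as a classical sign.

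The arrays of replicate 1 stood apart for these genes in every group. Replicate 1 gave the highest of the 3 values for 38 of the 39 measured genes in CHX + P/I cells, for 37 in P/I cells, for 39 in CHX cells and for 39 in DMSO cells. The median of the 39 genes was log2 10.19, 9.78 and 9.76 on replicates 1, 2 and 3 of CHX + P/I cells, 10.59, 9.86 and 10.22 on those of P/I cells, 10.40, 9.70 and 9.76 on those of CHX cells and 10.33, 9.53 and 9.69 on those of DMSO cells. Replicate 1 exceeded the mean of the other two arrays by a median of 0.34 in CHX + P/I cells, 0.49 in P/I cells, 0.64 in CHX cells and 0.62 in DMSO cells. Over all 23410 probe sets tested the same median lay between -0.06 and -0.01, and arrays of 1 group correlated at 0.983 to 0.994. Among the 5227 tested probe sets at least as bright as the dimmest of the 39 genes, replicate 1 was likewise the highest array of each group or level with it, with medians of 9.70, 9.47 and 9.52 on replicates 1, 2 and 3 of P/I cells, where the arrays were farthest apart. The part of replicate number in each comparison is given as counts with all 12 arrays and with the 8 arrays of replicates 2 and 3. Replicate 1 stood out in the values of these same 39 genes. Counts without it are therefore not independent of those values and are no second test. These fits hold no term for the replicate number, though all 12 arrays correlated best with one of their own number. With that number as a block, 27 genes were called higher in P/I than in DMSO cells (10 without it). In CHX + P/I cells 23 were then called lower than in P/I cells (8 without it). The share of all probe sets called with the block is not given here. What set replicate 1 apart was not tested. The median standard error of a difference over the 39 genes was 0.23 with 12 arrays and 0.12 with 8 arrays, against 0.11 with either over all probe sets tested.

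**Figure D1:**
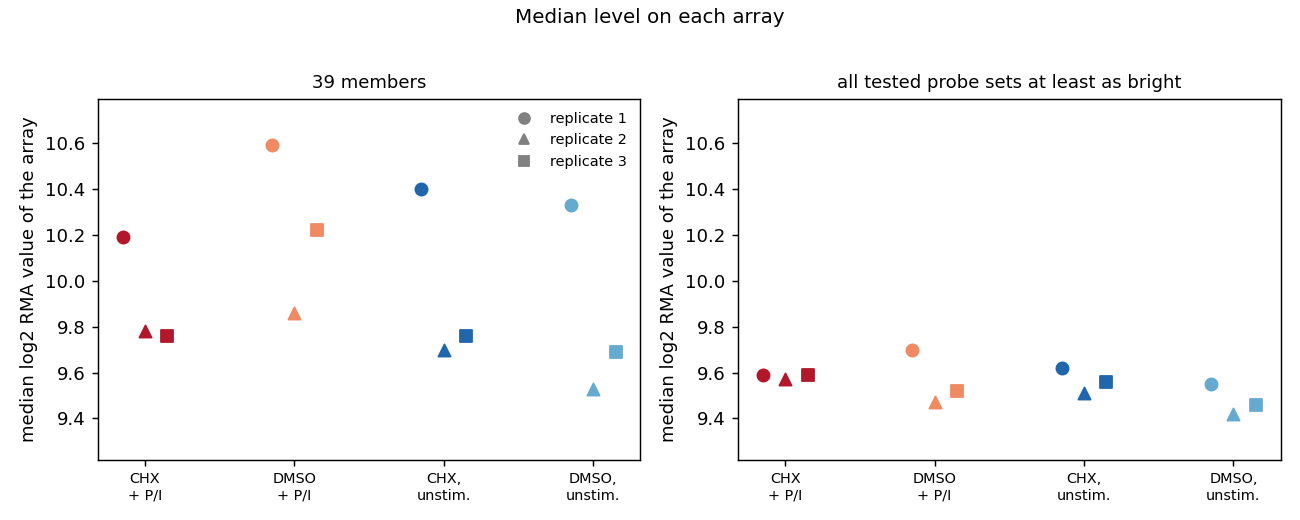
Median log2 RMA value on each of the 12 arrays, for the 39 ribosome biogenesis genes on the left and for the 5227 tested probe sets at least as bright as the dimmest of them on the right, with 1 symbol per array and its shape giving the replicate. Replicate 1 is the highest array of every group on the left (10.19 to 10.59), while on the right all arrays lie between 9.42 and 9.70.

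Of 12 T cell markers 10 were measured, and all 10 had group means of at least log2 7 in each group. Their summed log2 level spanned 99.0 to 102.7 in CHX + P/I cells, 100.7 to 103.4 in P/I cells, 98.9 to 100.9 in CHX cells and 98.7 to 101.5 in DMSO cells. At most 1 of the 7 measured B cell markers, 1 of the 8 myeloid markers and 0 of the 7 measured erythroid and fibroblast markers reached that level in any group. The levels here are shares of an equalised array, so that fewer cells with an mRNA and less of it per cell cannot be told apart, nor can a change in the total RNA of a cell be seen.

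Stimulation without CHX was followed by higher mRNA levels of 10 of the 39 genes, and 0 were lower. The background was 9.05% of all tested probe sets called higher and 8.42% called lower. The 10 genes were Ltv1, Noc3l, Bysl, Rrp9, Heatr1, Ddx21, Utp15, Gar1, Rrs1 and Tsr1, of which 5 belong to the 12 small subunit factors. The difference was positive for 37 of the 39 genes and its median was 0.43 on the log2 scale, against -0.03 over all tested probe sets and 0.04 over the 5227 bright ones, of which 855 were called higher and 684 lower. Without replicate 1 the count was 26 higher and 0 lower, with a median of 0.45, while 12% of all probe sets were then called higher and 12.6% lower. All 10 genes called with 12 arrays were among these 26. This setting drops the replicate that stood apart in these same genes, so its count is no separate support. Without replicate 2 the count was 2 higher and 0 lower (5.34% and 3.75% of all probe sets). Without replicate 3 limma called 0 of the 39 genes, with 1 higher at an unadjusted p under 0.05 (4.28% and 2.76% of all probe sets were called). Only 4 genes, Ddx21, Gar1, Bysl and Ltv1, had no overlap between the arrays of P/I and DMSO cells, against 12.2% of all tested probe sets (12.7% had all P/I arrays lower), and without replicate 1, with 2 arrays against 2, 32 genes had all P/I arrays higher and 1 all lower, against 26.7% and 28.1% of all tested probe sets.

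**Figure D2:**
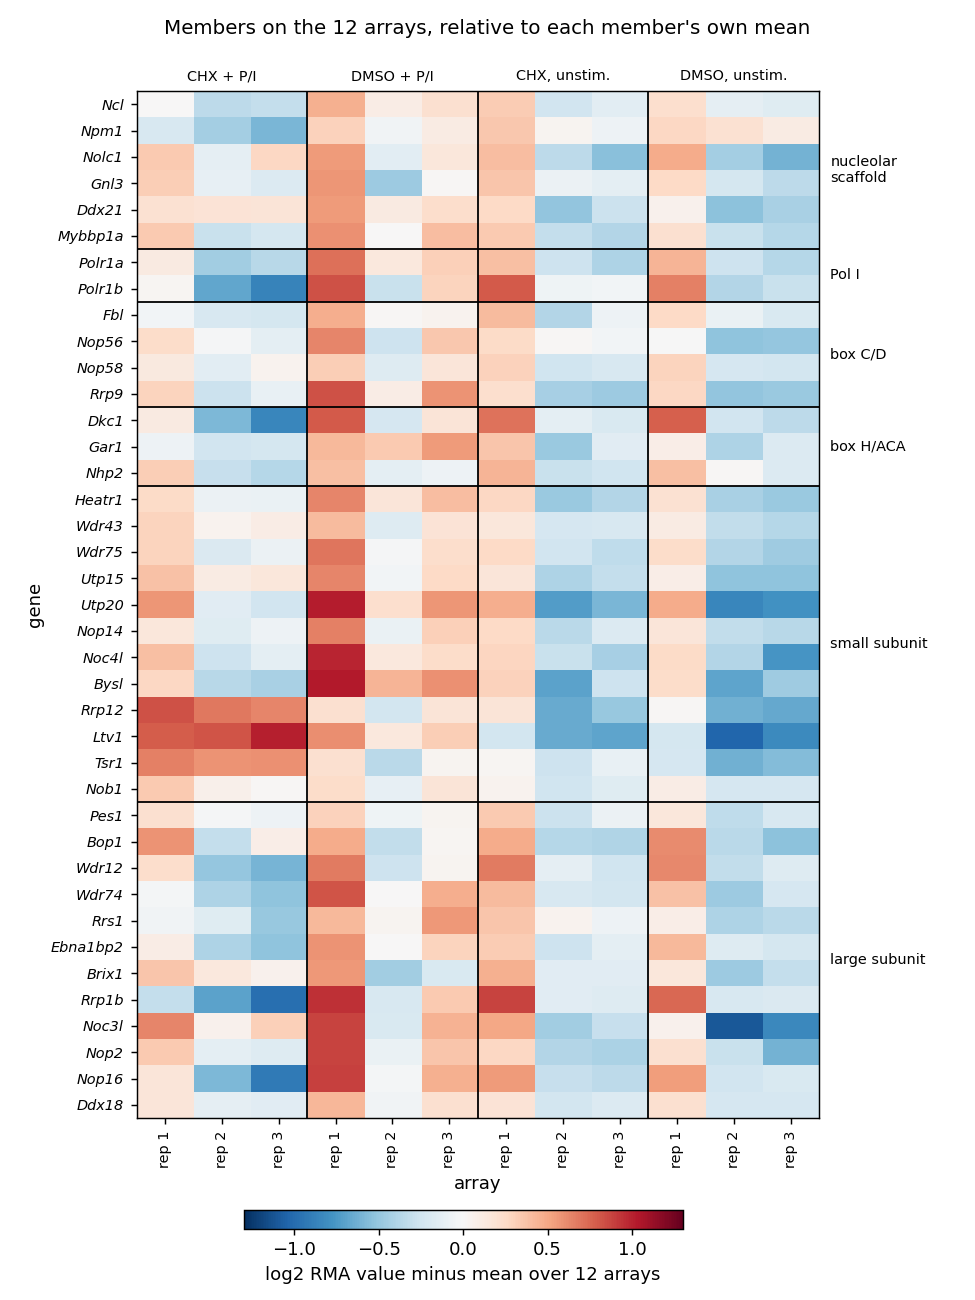
Log2 RMA value of each of the 39 genes (down the page, grouped by role) on each of the 12 arrays (across), shown as the difference from the gene's own mean over the 12 arrays. Within each group the replicate 1 column is the highest for nearly every gene, and Ltv1, Rrp12 and Tsr1 are highest in CHX + P/I cells.

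Among the 12 small subunit factors, all differences with P/I were positive, with a median of 0.56. Ltv1, a late assembly factor that leaves the small subunit precursor in the cytoplasm, had values of log2 9.56, 9.09 and 9.27 on the 3 arrays of P/I cells, against 8.72, 7.92 and 8.13 on those of DMSO cells. Every P/I array was above every DMSO array, and the difference of 1.05 (SE 0.20, 2.07-fold) was the largest of the 39 genes (adjusted p = 0.00325 from limma). It was called whichever of the 12 arrays was left out. Bysl (bystin), which binds the maturing small subunit in the nucleus, had 9.63, 9.04 and 9.19 in P/I cells, against 8.84, 7.91 and 8.14 in DMSO cells, again with no overlap (difference 0.99, SE 0.29, adjusted p = 0.0443 from limma). Heatr1, a component of the complex that couples RNA polymerase I transcription to early processing, had 10.98, 10.50 and 10.75 in P/I cells and 10.55, 9.93 and 9.87 in DMSO cells, so that the highest DMSO array, replicate 1, lay above the lowest P/I array (difference 0.63, SE 0.22, adjusted p = 0.0983 from limma). Tsr1, a GTPase-like factor of the late small subunit precursor, had 11.13, 10.57 and 10.96 in P/I cells and 10.70, 10.30 and 10.36 in DMSO cells, with overlap at DMSO replicate 1 and a difference of 0.43 (SE 0.15, adjusted p = 0.0766 from limma). Utp15, which acts beside Heatr1, was the fifth small subunit gene called (0.61, SE 0.21, adjusted p = 0.0824 from limma). Within each replicate number, the P/I array of Heatr1, Tsr1 and Utp15 lay above the DMSO array. The labels do not say that arrays of equal number are pairs.

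The other 7 small subunit factors did not pass the test with 12 arrays. Utp20, a large scaffold protein of the small subunit precursor, had a difference as great as that of Bysl (0.99) but a standard error of 0.40, since its replicate 1 arrays stood at 10.04 in P/I cells and 9.50 in DMSO cells while the other DMSO arrays stood at 8.17 and 8.23. Without replicate 1 its difference was 1.21 (SE 0.12), the highest of the 39 genes, and it was called. Noc4l and Nop14, partners in the small subunit precursor, had differences of 0.76 and 0.47 and were called without replicate 1, as were Wdr75 (0.51) and Wdr43 (0.33), both of the group of Heatr1, and Rrp12 (0.47), which serves in nuclear export of the subunits. Nob1, the endonuclease of the final small subunit rRNA cleavage, had a difference of 0.22 and was not called in either setting.

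Of the 12 measured large subunit factors, Noc3l and Rrs1 were called higher with P/I, and the median was 0.28. Noc3l, which in yeast takes part in the nuclear transport of the large subunit precursor, had 9.62, 8.54 and 9.19 in P/I cells and 8.80, 7.64 and 7.90 in DMSO cells (difference 1.01, SE 0.34, adjusted p = 0.0818 from limma). Its DMSO replicate 1 overlapped the P/I arrays. Rrs1, an assembly factor of the large subunit, had 9.47, 9.08 and 9.61 in P/I cells and 9.13, 8.64 and 8.69 in DMSO cells, where DMSO replicate 1 lay above P/I replicate 2 (difference 0.56, SE 0.18, adjusted p = 0.058 from limma). Within each replicate number, the P/I array of Noc3l and of Rrs1 lay above the DMSO array. The remaining 10 had differences between 0.10 for Wdr12 and 0.62 for Nop2, a methyltransferase of the large subunit rRNA. Nop2, Wdr74, Nop16, Ebna1bp2 and the helicase Ddx18 were called higher without replicate 1. The 3 components of the PeBoW complex, which is needed to process the large subunit rRNA, were called in neither setting, at 0.22 for Pes1, 0.15 for Bop1 and 0.10 for Wdr12.

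Among the snoRNP proteins, Rrp9 and Gar1 were called higher with P/I. Rrp9, a WD-repeat protein of a box C/D snoRNP that serves in the early cleavages, had 10.59, 9.86 and 10.35 in P/I cells and 10.04, 9.25 and 9.28 in DMSO cells, where replicate 1 of the DMSO cells again overlapped the P/I arrays (difference 0.74, SE 0.26, adjusted p = 0.0932 from limma). Within each replicate number, its P/I array lay above the DMSO array. Gar1, a protein of the box H/ACA snoRNPs that make pseudouridine, had 10.67, 10.59 and 10.81 in P/I cells and 10.34, 9.85 and 10.07 in DMSO cells, with no overlap (difference 0.60, SE 0.18, adjusted p = 0.0504 from limma). The other box C/D proteins had differences of 0.58 (Nop56, a core scaffold), 0.19 (fibrillarin, Fbl, the ribose methyltransferase) and 0.16 (Nop58, a core scaffold), and only Nop56 was called without replicate 1. The pseudouridine synthase Dkc1 and its partner Nhp2, with differences of 0.18 and -0.01, were called in neither setting.

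The nucleolar scaffold and multifunctional proteins included 1 called gene, the RNA helicase Ddx21, at 11.89, 11.45 and 11.56 in P/I cells and 11.39, 10.80 and 10.91 in DMSO cells (difference 0.61, SE 0.20, adjusted p = 0.0674 from limma). Nucleophosmin (Npm1), a nucleolar histone chaperone, had the lowest difference of the 39 genes (-0.07, SE 0.13), with arrays at 12.31, 11.96 and 12.11 in P/I cells and 12.28, 12.20 and 12.11 in DMSO cells, which overlapped throughout. Nucleolin (Ncl), an RNA-binding protein that is among the most abundant of the nucleolus, had a difference of 0.28, Nolc1, which accompanies snoRNPs, one of 0.38, and Mybbp1a, a nucleolar protein that binds transcription factors, one of 0.49. These 3 genes were called without replicate 1 but not with 12 arrays. The nucleolar GTPase Gnl3 (nucleostemin) had a difference of 0.14. Of the 2 subunits that form the catalytic core of RNA polymerase I, Polr1a had a difference of 0.46 and was called without replicate 1, and Polr1b one of 0.28 and was not. Single arrays moved the count over all 39 genes. Leaving out replicate 2 or replicate 3 of the DMSO cells left Ltv1 as the 1 gene called higher, leaving out replicate 1 or replicate 3 of the P/I cells left 2 genes, and leaving out replicate 1 of the DMSO cells gave 20.

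**Figure D3:**
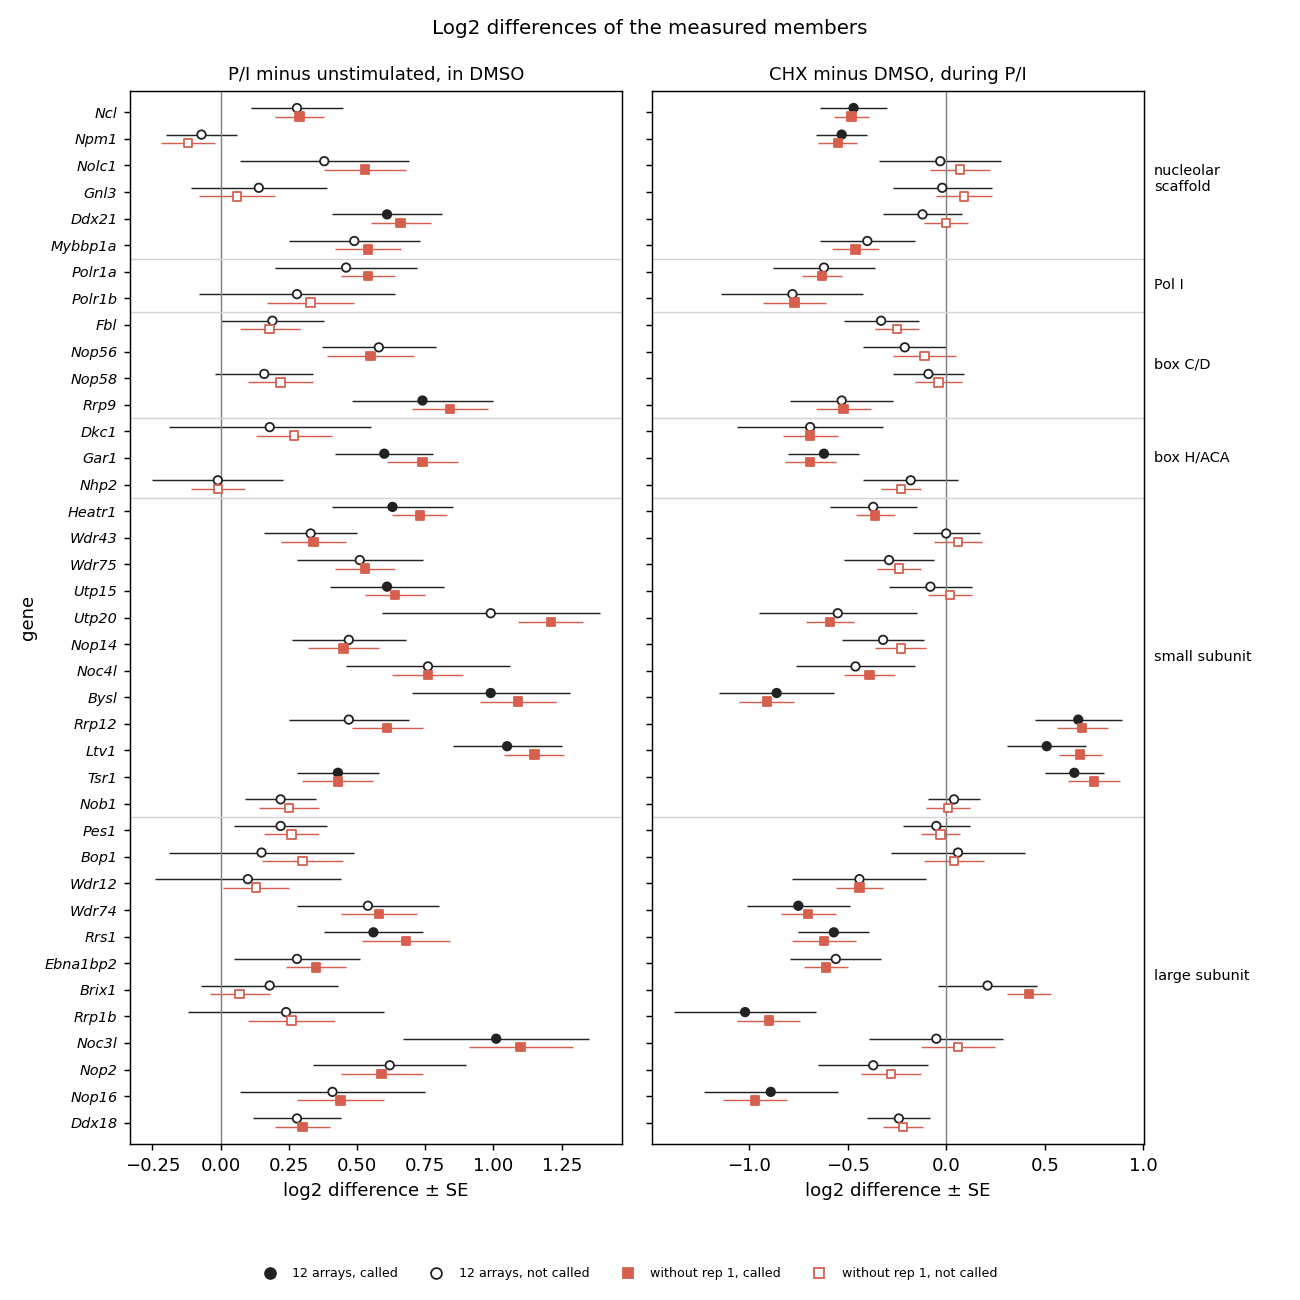
Log2 difference with its standard error for each of the 39 genes, grouped by role down the page, for P/I minus unstimulated in DMSO (left) and CHX minus DMSO during P/I (right), from 12 arrays (black circles) and without replicate 1 (red squares), filled where the adjusted p from limma was under 0.1. On the left 37 of 39 genes lie to the right of 0, with 12 arrays and without replicate 1. On the right 32 lie to the left of 0 with 12 arrays and 28 without replicate 1, while Ltv1, Rrp12 and Tsr1 lie clearly to the right.

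Promoter sequence was taken for the genes from the RefSeq promoter table of mouse build GRCm38.p6, which held 34 of the 39. The letters CCGGAAG, the core bound by ETS transcription factors, were searched on both strands in the 250 bases before each start site and stood in 8 of the 34 genes (23.5%), against 7.8% of 27025 genes in the table. The E-box CACGTG, bound by Myc and related proteins, stood there in 1 of 34 (2.9%, against 6.9% of all genes), and the YY1 core AAGATGG also in 1 of 34 (2.9%, against 5.2%). With the 50 bases after the start included, the E-box stood in 7 of 34 (20.6%, against 8.1%), the ETS core in 11 (32.4%, against 9.9%) and the YY1 core in 1 (2.9%, against 7.3%). The median GC content of these promoters was 57.6%, against 52.4% over the table, and the counts were not adjusted for it. Of the genes with the ETS core before the start, Ltv1, Heatr1 and Gar1 were called higher with P/I over all arrays. Brix1, Nhp2, Nolc1, Nop2 and Wdr74 were not, with differences from -0.01 (Nhp2) to 0.62 (Nop2). Nolc1, Nop2 and Wdr74 were called without replicate 1. Ddx21, Rrp9, Utp15, Bysl, Tsr1 and Noc3l were called over all arrays but lack the core there. Tsr1 and Noc3l hold it with the 50 bases after the start included. A link between motif and P/I was not tested. The ETS core ends in the letters that begin the YY1 core, so these can share bases, and a match is a description of the letters, not a bound site. Shown are the 150 bases before the start of 3 genes that were higher with P/I and hold the ETS core (Ltv1, Heatr1, Gar1), of Nop2, the gene with the E-box, and of Bysl, which was higher with P/I and holds none of the 3 motifs in this stretch. Each is written from 5′ to 3′ on the strand of its gene, with the motifs in capitals. Ltv1 lies at chr10:13193138-13193287 (minus strand), Heatr1 at chr13:12395225-12395374 (plus), Gar1 at chr3:129831397-129831546 (minus), Nop2 at chr6:125131733-125131882 (plus) and Bysl at chr17:47611493-47611642 (minus).
Ltv1: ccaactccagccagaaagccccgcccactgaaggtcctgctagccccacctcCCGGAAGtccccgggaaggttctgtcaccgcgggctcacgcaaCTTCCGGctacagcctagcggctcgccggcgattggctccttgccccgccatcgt
Heatr1: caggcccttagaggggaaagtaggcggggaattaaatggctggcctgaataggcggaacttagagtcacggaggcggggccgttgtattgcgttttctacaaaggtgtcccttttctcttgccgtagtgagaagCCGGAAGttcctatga
Gar1: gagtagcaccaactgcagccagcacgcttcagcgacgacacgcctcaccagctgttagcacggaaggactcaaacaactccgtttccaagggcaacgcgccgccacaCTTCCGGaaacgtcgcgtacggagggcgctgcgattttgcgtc
Nop2: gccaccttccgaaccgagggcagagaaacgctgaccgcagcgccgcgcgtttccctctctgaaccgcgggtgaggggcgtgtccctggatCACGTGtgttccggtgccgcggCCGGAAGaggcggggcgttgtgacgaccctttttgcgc
Bysl: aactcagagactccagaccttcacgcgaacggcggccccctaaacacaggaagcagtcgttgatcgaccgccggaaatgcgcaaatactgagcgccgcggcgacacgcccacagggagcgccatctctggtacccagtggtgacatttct
Counted back from the start site, the ETS core begins at -98 and -55 in Ltv1, at -16 in Heatr1, at -43 in Gar1 and at -38 in Nop2, where the E-box begins at -60.

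CHX given before P/I went with higher levels of 3 of the 39 genes and lower levels of 8, relative to P/I alone. These were 7.7% and 20.5% of the 39 genes, where 13.2% of all tested probe sets were called higher and 12% lower. Of the 5227 bright probe sets 21.3% were called higher and 23.3% lower, so neither count of the 39 genes lay above their share. The 3 higher genes were Ltv1, Rrp12 and Tsr1, and the 8 lower genes were Rrp1b, Nop16, Bysl, Wdr74, Gar1, Rrs1, Npm1 and Ncl. The median of the 39 differences was -0.33, against 0.01 over all tested probe sets and -0.06 over the 5227 bright ones, of which 1115 were called higher and 1218 lower. Without replicate 1 the counts were 4 higher and 18 lower, with a median of -0.25, and 17.2% and 15.2% of all probe sets were then called higher and lower. The 11 genes called with 12 arrays were among those 22 in the same direction. Without replicate 2 there were 1 higher and 2 lower (7.22% and 7.42% of all probe sets), and without replicate 3 limma called 0 of the 39 genes, with 2 higher and 1 lower at an unadjusted p under 0.05 (5.93% and 6.10% of all probe sets were called). In 3 genes all CHX + P/I arrays lay above all P/I arrays and in 9 genes below them, against 15.3% and 14.8% of all tested probe sets. Bysl, Gar1 and Rrs1 were called in both comparisons, as higher for P/I and as lower for CHX. Both comparisons use the P/I arrays.

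Tsr1 had log2 11.58, 11.51 and 11.52 in CHX + P/I cells, against 11.13, 10.57 and 10.96 in P/I cells. The groups did not overlap, and the difference was 0.65 (SE 0.15, 1.57-fold, adjusted p = 0.00678 from limma). Rrp12 had 9.63, 9.49 and 9.44 in CHX + P/I cells and 9.01, 8.57 and 8.97 in P/I cells, also without overlap (difference 0.67, SE 0.22, adjusted p = 0.0535 from limma). For Ltv1 the values were 9.74, 9.77 and 9.96 in CHX + P/I cells and 9.56, 9.09 and 9.27 in P/I cells (difference 0.51, SE 0.20, adjusted p = 0.0935 from limma). Its arrays did not overlap either. Tsr1 was called whichever single array was left out, Rrp12 lost its call without replicate 1 or 2 of the CHX + P/I cells or replicate 2 of the P/I cells, and Ltv1 kept its call in 4 of 12 such fits.

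**Figure D4:**
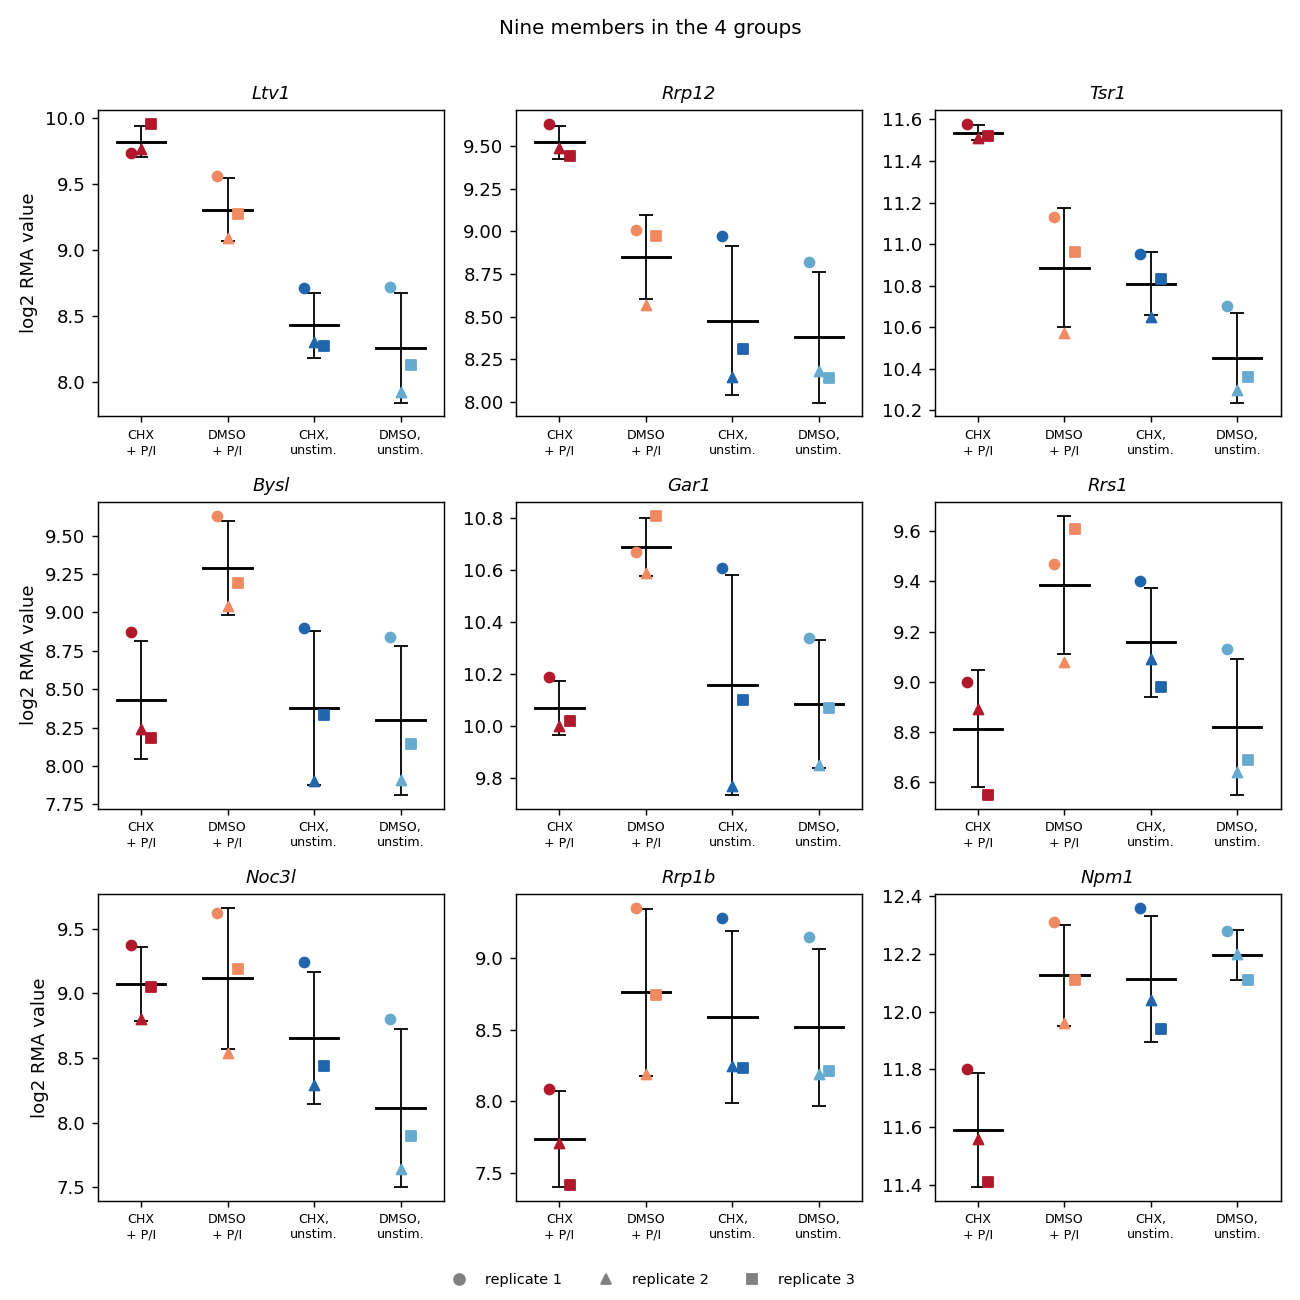
Log2 RMA values of 9 of the genes in CHX + P/I, DMSO + P/I, unstimulated CHX and unstimulated DMSO cells, with the 3 arrays as symbols (shape gives the replicate), the mean as a line and the SD as error bars; the vertical axes do not start at 0 and differ between panels. Ltv1, Rrp12 and Tsr1 are highest in CHX + P/I cells (means 9.82, 9.52 and 11.54), while Bysl, Gar1 and Rrs1 are highest in DMSO + P/I cells (means 9.29, 10.69 and 9.38).

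The lower genes with CHX included 4 large subunit factors. Rrp1b, a nucleolar protein that also binds a protein phosphatase, had 8.09, 7.71 and 7.42 in CHX + P/I cells and 9.35, 8.19 and 8.74 in P/I cells, with no overlap. Its difference of -1.02 (SE 0.36, 2.03-fold lower) was the largest decrease of the 39 genes (adjusted p = 0.0702 from limma). Nop16, a nucleolar large subunit factor, had 9.78, 9.04 and 8.71 in CHX + P/I cells and 10.51, 9.60 and 10.09 in P/I cells, where replicate 1 of CHX + P/I cells lay above replicate 2 of P/I cells (difference -0.89, SE 0.34, adjusted p = 0.0893 from limma). Wdr74, which acts in remodelling of the large subunit precursor, had 9.97, 9.60 and 9.48 in CHX + P/I cells and 10.82, 10.01 and 10.47 in P/I cells (difference -0.75, SE 0.26, adjusted p = 0.0618 from limma). Rrs1 had 9.00, 8.89 and 8.55 in CHX + P/I cells and 9.47, 9.08 and 9.61 in P/I cells (difference -0.57, SE 0.18, adjusted p = 0.0395 from limma). Neither Wdr74 nor Rrs1 overlapped between the groups. Nop16 kept its call in 4 of 12 fits that each left out 1 array.

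Bysl was the 1 small subunit factor called lower, at 8.87, 8.24 and 8.18 in CHX + P/I cells and 9.63, 9.04 and 9.19 in P/I cells (difference -0.86, SE 0.29, adjusted p = 0.0603 from limma). In CHX + P/I cells it thus had a mean of 8.43 ± 0.38, against 8.38 ± 0.50 in CHX cells and 8.30 ± 0.48 in DMSO cells (SD, n = 3). Gar1 was at 10.19, 10.00 and 10.02 in CHX + P/I cells and 10.67, 10.59 and 10.81 in P/I cells, with no overlap (difference -0.62, SE 0.18, adjusted p = 0.0321 from limma). Npm1 had 11.80, 11.56 and 11.41 in CHX + P/I cells and 12.31, 11.96 and 12.11 in P/I cells, a difference of -0.53 (SE 0.13, adjusted p = 0.0131 from limma) that was called whichever single array was left out. Ncl had 11.73, 11.39 and 11.42 in CHX + P/I cells and 12.19, 11.83 and 11.94 in P/I cells (difference -0.47, SE 0.17, adjusted p = 0.0663 from limma). The calls of Ncl, Bysl, Wdr74 and Rrp1b were lost without replicate 2 or 3 of the CHX + P/I cells and without replicate 1 or 3 of the P/I cells.

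The remaining 28 genes did not pass the test for CHX during P/I with 12 arrays. The RNA polymerase I subunits Polr1a and Polr1b had differences of -0.62 and -0.78, and Dkc1 one of -0.69 with a standard error of 0.37. All 3 were called lower without replicate 1, at -0.63, -0.77 and -0.69, with standard errors between 0.10 and 0.16. Mybbp1a, Rrp9, Heatr1, Utp20, Noc4l, Wdr12 and Ebna1bp2, the last a factor of early large subunit assembly, were also called lower in that setting, and Brix1, a large subunit factor with a difference of 0.21 over 12 arrays, was called higher. The differences nearest to 0 were those of Wdr43 (0.00), Gnl3 (-0.02) and Nolc1 (-0.03).

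P/I in cells pretreated with CHX, relative to unstimulated CHX cells, went with higher Ltv1, Rrp12 and Tsr1 and with lower Npm1. These were 7.7% and 2.6% of the 39 genes, below the 10.2% called higher and 11.6% called lower over all tested probe sets. Of the 5227 bright probe sets 16.1% were called higher and 20.6% lower. The median of the 39 differences was 0.06. Ltv1 was at 9.74, 9.77 and 9.96 in CHX + P/I cells, against 8.71, 8.30 and 8.27 in CHX cells (difference 1.40, SE 0.20, 2.63-fold, adjusted p = 0.000447 from limma). Rrp12 was at 9.63, 9.49 and 9.44 in CHX + P/I cells and 8.97, 8.15 and 8.31 in CHX cells (difference 1.04, SE 0.22, adjusted p = 0.00638 from limma). Tsr1 was at 11.58, 11.51 and 11.52 in CHX + P/I cells and 10.95, 10.65 and 10.83 in CHX cells (difference 0.73, SE 0.15, adjusted p = 0.00422 from limma). Npm1 was at 11.80, 11.56 and 11.41 in CHX + P/I cells and 12.36, 12.04 and 11.94 in CHX cells (difference -0.52, SE 0.13, adjusted p = 0.0176 from limma). None of the 4 overlapped between the groups, and each was called whichever single array was left out. All 12 small subunit factors had a positive difference, with a median of 0.25. Without replicate 1, Nolc1, Ddx21, Heatr1, Utp15, Utp20 and Noc3l were also called higher and Polr1b, Dkc1, Wdr12, Rrp1b and Nop16 also lower, which gave 9 and 6 genes against 13.0% and 15.3% of all probe sets. Without replicate 2 there were 2 higher and 0 lower (5.65% and 6.38% of all probe sets), and without replicate 3 there were 1 higher and 0 lower (4.69% and 4.60%).

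The effect of P/I in CHX minus that in DMSO, the interaction, was called for Rrs1 alone of the 39 genes. It was called lower in 7.62% and higher in 6.04% of all tested probe sets. Rrs1 had 9.00, 8.89 and 8.55 in CHX + P/I cells, 9.47, 9.08 and 9.61 in P/I cells, 9.40, 9.09 and 8.98 in CHX cells and 9.13, 8.64 and 8.69 in DMSO cells. Its P/I difference was -0.35 in CHX and 0.56 in DMSO, an interaction of -0.91 (SE 0.25, adjusted p = 0.0413 from limma), and the call was lost without replicate 3 of the CHX + P/I cells or replicate 2 or 3 of the DMSO cells. The other 38 genes did not pass this test with 12 arrays and no term for the replicate number, which does not show that the P/I effect was alike in CHX and DMSO. The interaction was negative for 34 of the 39 genes, with a median of -0.43, against 0.05 over all tested probe sets and -0.10 over the bright ones. Without replicate 1 it was called lower for 15 genes and higher for 1, Rrp12, against 10.3% and 9.65% of all probe sets. Limma called 0 genes without replicate 2, with 3 lower at an unadjusted p under 0.05 (3.61% of all probe sets were called lower and 1.75% higher), and 0 without replicate 3, with 0 at that level (1.99% and 1%). The 15 genes called lower without replicate 1 were Rrs1, Ncl, Polr1a, Polr1b, Rrp9, Dkc1, Gar1, Utp20, Noc4l, Bysl, Wdr12, Wdr74, Ebna1bp2, Rrp1b and Nop16.

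CHX without P/I gave 0 called genes of 39 by limma, where 0.0299% of all tested probe sets were called higher and 0.00% lower. The median difference was 0.07, and all 39 genes overlapped between CHX and DMSO cells, while over all tested probe sets 7.06% had every CHX array higher and 9.15% every CHX array lower. At an unadjusted p under 0.05 there was 1 gene, Tsr1, with 10.95, 10.65 and 10.83 in CHX cells and 10.70, 10.30 and 10.36 in DMSO cells (difference 0.35, SE 0.15, adjusted p = 0.707 from limma). Noc3l had the largest difference, at 9.24, 8.29 and 8.44 in CHX cells and 8.80, 7.64 and 7.90 in DMSO cells (0.54, SE 0.34, adjusted p = 0.79 from limma). Without replicate 1 there were again 0 calls, with 5 genes at an unadjusted p under 0.05 and 2.83% of all probe sets called higher. The sources used here do not give the length of CHX exposure of unstimulated cells after the pretreatment, so whether the 2 CHX comparisons match in exposure is not known.

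Ranked by group mean, the order of the 4 groups differed between genes. For Ltv1, Rrp12 and Tsr1 it was CHX + P/I, P/I, CHX and DMSO from high to low, with means of 9.82, 9.31, 8.43 and 8.26 for Ltv1. Of the neighbours in this order, CHX + P/I and P/I cells passed the test for all 3 genes, CHX and DMSO cells for none, and P/I cells were not tested against CHX cells. P/I and DMSO cells differed by the test for Ltv1 and Tsr1 but not for Rrp12 (0.47, adjusted p = 0.231 from limma). Gar1 was highest in P/I cells (10.69 ± 0.11), and the other groups lay at 10.07 ± 0.10 in CHX + P/I cells, 10.16 ± 0.42 in CHX cells and 10.09 ± 0.24 in DMSO cells (SD, n = 3), within their spread. Npm1 was lowest in CHX + P/I cells (11.59 ± 0.20), while P/I cells (12.12 ± 0.18), CHX cells (12.11 ± 0.22) and DMSO cells (12.20 ± 0.09) did not differ beyond their spread.

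Probe sets for the same gene did not always give the same size of effect. Wdr12, Ddx18 and Fbl each had a second probe set, which was dimmer on average. During P/I, the CHX difference of Wdr12 was -0.44 on the brighter and -0.81 on the dimmer probe set, that of Ddx18 was -0.24 and -0.32, and that of Fbl was -0.33 and -0.26. None of these 6 values was called with 12 arrays, and both Wdr12 values were called lower without replicate 1.

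Other genes of ribosome synthesis, 134 measured from a list that does not hold the 39, also had more calls of higher than of lower level with P/I, at 32 and 1 (23.9% and 0.7% of them, against 9.05% and 8.42% of all tested probe sets), with a median of 0.33. Those of smallest p were Taf1c (0.76, SE 0.08, adjusted p = 3.94e-05 from limma), a subunit of the selectivity factor of RNA polymerase I, the helicase Ddx54 (0.58), the GTPase Lsg1 (0.63), which acts late on the large subunit, and Nol10 (1.41), a small subunit factor. Trmt112, an activator of methyltransferases, was the gene called lower (-0.34, SE 0.09, adjusted p = 0.0273 from limma). For CHX during P/I, 14 of the 134 genes were called higher and 10 lower (10.4% and 7.5%, below the 13.2% and 12% of all tested probe sets), with a median of -0.09. The higher ones were led by Taf1a (1.24, SE 0.15, adjusted p = 1e-04 from limma), of the same selectivity factor, Efl1 (1.11), a GTPase of large subunit maturation, and the polymerase subunits Polr2h (0.82) and Znrd1 (0.71). The lower ones were led by Ubtf (-1.09, SE 0.16, adjusted p = 0.000381 from limma), the upstream binding factor of ribosomal DNA, by Taf1d (-0.94), also of the selectivity factor, by C1d (-0.72), an exosome cofactor, and by Rcl1 (-0.87), a small subunit factor. Within the RNA polymerase I machinery, 3 of 17 of these genes were thus higher and 3 lower. P/I in CHX went with 22 higher and 4 lower (16.4% and 3.0%, against 10.2% and 11.6%). Of the 5227 bright probe sets, 16.1% were called higher and 20.6% lower for P/I in CHX, so the share of higher calls was near theirs. For P/I in DMSO, 16.4% of the bright probe sets were called higher and 13.1% lower, and for CHX during P/I 21.3% and 23.3%. CHX without P/I gave 0 calls, with 6 genes at an unadjusted p under 0.05. Without replicate 1 the counts of the 134 genes were 72 higher and 2 lower for P/I (53.7% and 1.5%, against 12% and 12.6% of all probe sets) and 31 and 23 for CHX during P/I (23.1% and 17.2%, against 17.2% and 15.2%). Over all fits that left out 1 array or 1 replicate number, 3 to 72 were higher and 0 to 3 lower for P/I. For CHX during P/I the ranges were 5 to 31 higher and 2 to 23 lower.

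The cytosolic ribosomal protein genes, the products that these factors assemble, were added after the values had been seen. Of 61 such genes, P/I went with 1 higher and 0 lower (1.6% and 0.0%, against 9.05% and 8.42% of all tested probe sets), with a median of 0.05. CHX during P/I went with 0 higher and 34 lower (0.0% and 55.7%, against 13.2% and 12%), with a median of -0.24. P/I in CHX went with 0 higher and 11 lower (18% lower, against 11.6%), and the interaction with 0 higher and 6 lower (9.8% lower, against 7.62%). Of the 5227 bright probe sets, 23.3% were called lower for CHX during P/I, 20.6% for P/I in CHX and 12.7% for the interaction. The shares of the ribosomal protein genes for P/I in CHX and for the interaction thus lay below those of the bright probe sets. CHX without P/I gave 0 calls, with 2 genes at an unadjusted p under 0.05.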

How the data were processed

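Total RNA of EL-4 cells was hybridised to 12 arrays, 3 for each of 4 groups. The authors corrected the background of the arrays by RMA with adjustment for probe sequence, normalized them by quantiles and summarized them in Partek, and the deposited values are log2 RMA values. Versions of these programs are not given in the sources used here. The table held 35399 probe sets, and 21789 of them had 1 gene symbol in the platform annotation. Fits were made with limma 3.58.1 (R 4.3.3) on 23410 probe sets, those that carry 1 or more symbols, with 1 mean per group over all 12 arrays (8 residual and 3.63 prior degrees of freedom). The threshold was 0.1 for the p-value adjusted by the Benjamini-Hochberg method. Tests are two-sided. The scripts were tested on simulated data. The number of arrays limits the precision. The genes, the further gene lists and the tests were chosen with earlier results of these data known, so no list is independent evidence of its direction. All 40 genes were described, and values of every array are given for the 5 called genes of largest difference in each direction and comparison. Of the further genes, the 4 of smallest p in each direction were named. Alternatives were a replicate block, a variance trend, an adjusted p under 0.05, all probe sets, a mean of at least log2 5, 2 other normalizations, the mean of a gene's probe sets and leaving out arrays. Figures were drawn with matplotlib 3.10.9 in Python 3.11.15.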

Additional observations from a re-analysis of the deposited data

Results flagged for a closer look

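For 1 of the 39 genes and 6 of the further genes named in the report, the effect of P/I differed between CHX and DMSO by the interaction in limma. Rrs1 had an interaction of -0.91 (P/I difference -0.35 in CHX and 0.56 in DMSO, adjusted p = 0.0413 from limma). Ubtf had one of -1.08 (-0.52 in CHX and 0.56 in DMSO, adjusted p = 0.00932 from limma) and Rcl1 one of -0.96 (0.24 in CHX and 1.20 in DMSO, adjusted p = 0.0773 from limma). Polr2h had one of 0.88 (1.01 in CHX and 0.13 in DMSO, adjusted p = 0.00453 from limma), Efl1 one of 0.87 (1.18 in CHX and 0.31 in DMSO, adjusted p = 0.0176 from limma), Znrd1 one of 0.66 (0.42 in CHX and -0.24 in DMSO, adjusted p = 0.0263 from limma) and Taf1a one of 0.61 (1.23 in CHX and 0.62 in DMSO, adjusted p = 0.0996 from limma). The 6 further genes had been named for their small p in CHX during P/I, a comparison that shares arrays with the interaction. Their interactions are thus no separate evidence. Over all tested probe sets the interaction was called higher in 6.04% and lower in 7.62%. The cause was not tested.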

How the results depend on the processing

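Over the 26 calls of the 39 genes and 24 alternatives, 453 of 624 values kept their direction and call, 171 kept their direction and lost the call, and none reversed. Of 4056 values of genes not called, 172 were called under an alternative in the same direction, 245 changed sign and none of these was called. With the replicate number as a block, counts were 27 higher for P/I (10 without it), 23 lower for CHX during P/I (8), 8 higher and 10 lower for P/I in CHX (3 and 1), and 1 higher and 22 lower for the interaction (0 and 1). For the further genes the block gave 77 higher and 3 lower for P/I, 22 and 32 for CHX during P/I, 44 and 11 for P/I in CHX, and 31 lower for the interaction. The labels do not say what the number shares. Same-numbered arrays deviated together at r = 0.0644 to 0.75 (18 pairs, median 0.353) and other pairs at a median of -0.264 (36 pairs), and all 12 arrays correlated best with one of their own number.

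At an adjusted p under 0.05, 2 genes were higher for P/I, and 1 higher and 3 lower for CHX during P/I, and of the further genes 20 were higher for P/I, 14 higher for P/I in CHX, and 3 higher and 3 lower for the interaction. With all probe sets tested, 5 genes were higher for P/I, and 3 further genes higher for the interaction. With arrays centred on their median, 4 genes were higher for P/I and 2 lower for CHX during P/I, and of the further genes 20 were higher for P/I, 6 lower for CHX during P/I, and 3 higher and 3 lower for the interaction. Quantile normalization gave 2 genes lower for the interaction and 3 further genes lower for P/I. Averaging probe sets gave 0 further genes lower for P/I, and a variance trend 3 higher for the interaction. Centring on bright probe sets, chosen after seeing the data, gave 3 genes lower for P/I in CHX and 3 further genes lower for P/I. It moved the median of all probe sets to -0.12 for P/I and 0.12 for the interaction, where the 39 genes stood at 0.34 and -0.36, and the share of calls that were higher to 37.9% for P/I (51.8% before). Median centring moved that share to 63.1% for CHX during P/I (52.4% before). The median of CHX without P/I was 0.14, 0.00 and -0.01 with median centring, quantile normalization and centring on bright probe sets (0.07 before).

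Leaving out 1 array, or all of 1 replicate number, the 39 genes gave 0 to 26 higher for P/I, 0 to 4 higher and 0 to 18 lower for CHX during P/I, 1 to 9 higher and 0 to 6 lower for P/I in CHX, and 0 to 1 higher and 0 to 15 lower for the interaction. The further genes gave 3 to 72 higher and 0 to 3 lower for P/I, 5 to 31 and 2 to 23 for CHX during P/I, 0 to 4 higher for CHX without P/I, 9 to 60 and 0 to 8 for P/I in CHX, and 0 to 10 and 0 to 19 for the interaction. The median difference of the 39 genes ranged over 0.29 to 0.66, -0.49 to -0.14, -0.15 to 0.31, -0.05 to 0.25 and -0.61 to -0.21 for P/I, CHX during P/I, CHX without P/I, P/I in CHX and the interaction.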
